A study of Mus musculus with 15 samples.

Results

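Chemokine receptors are the subject here: Cxcr2, Cxcr4, Cx3cr1, Ccr1, Ccr2 and Ccr9, which are 6 of the 19937 mouse genes measured on the arrays. A gene was followed through the probe set that carries its symbol alone. Each of the 6 had 1 such probe set (10347291 for Cxcr2, 10357472 for Cxcr4, 10597743 for Cx3cr1, 10598004 for Ccr1, 10590631 for Ccr2 and 10590620 for Ccr9).

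The study sorted myeloid progenitors from the bone marrow of female C57BL/6 mice in a pre-leukaemic state, to look for deregulated genes. The mice carried altered alleles of Cebpa, which encodes C/EBPα, a transcription factor that granulocyte formation needs. RNA of each sample was hybridised to 1 Affymetrix Mouse Gene 1.0 ST array, 15 in all, in 5 groups of 3. Granulocyte-macrophage progenitors (GMPs; lineage-negative, Sca1-negative, cKit-positive, CD150-negative, CD41-negative, FcγRII-positive) came from Cebpa fl/p30 mice, Cebpa fl/BRM2 mice and Cebpa fl/+ controls. PreGMs, the stage before the GMP (FcγRII-negative and Endoglin-negative in that gate), came from Cebpa fl/p30 mice and from +/+ controls. All 5 groups carried Mx1Cre, a recombinase under an interferon-responsive promoter that is not restricted to blood cells, and tissue was taken 3 weeks after the conditional knockout. Once the floxed (fl) allele is deleted, the p30 allele, which makes the short form of C/EBPα, or the BRM2 allele, as the labels call it, is the one left, and fl/+ cells keep 1 normal allele. The controls of the 2 stages thus differ in genotype, and no source used here gives the age of the mice or the completeness of deletion. The fl/p30 GMPs and preGMs came from the same 3 animals, numbered here as replicates 1, 2 and 3.

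Chemokine receptors are G-protein-coupled receptors that steer the movement of leukocytes along gradients of small secreted proteins, the chemokines, through Gi proteins. In the bone marrow, CXCR4 holds stem and progenitor cells and neutrophils in place by binding CXCL12, and CXCR2 drives neutrophils out of the marrow and into inflamed tissue in response to CXCL1, CXCL2 and CXCL5. CCR2, the receptor of CCL2 and CCL7, lets monocytes leave the marrow. CX3CR1 binds CX3CL1 and marks monocyte and macrophage lineages, CCR1 binds CCL3, CCL5 and CCL9 on myeloid cells, and CCR9 binds CCL25 and guides lymphocytes to thymus and gut.

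The 250 bases before the start of the 3 genes called in any comparison are shown because Cebpa encodes a DNA-binding factor. They come from the RefSeq promoter table (GRCm38.p6), which held all 6 receptors: Cxcr2 on the plus strand (chr1:74153744-74153993), Cx3cr1 on the minus strand (chr9:120068297-120068546) and Ccr1 on the minus strand (chr9:123968693-123968942), each read 5′ to 3′ in the direction of its gene. Capitals mark matches to 4 short motifs of myeloid factors, searched on both strands.
Cxcr2: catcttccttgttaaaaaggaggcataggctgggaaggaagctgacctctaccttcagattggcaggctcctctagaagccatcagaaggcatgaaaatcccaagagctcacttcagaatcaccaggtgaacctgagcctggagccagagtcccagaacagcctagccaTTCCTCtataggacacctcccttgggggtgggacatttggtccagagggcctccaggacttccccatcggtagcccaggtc
Cx3cr1: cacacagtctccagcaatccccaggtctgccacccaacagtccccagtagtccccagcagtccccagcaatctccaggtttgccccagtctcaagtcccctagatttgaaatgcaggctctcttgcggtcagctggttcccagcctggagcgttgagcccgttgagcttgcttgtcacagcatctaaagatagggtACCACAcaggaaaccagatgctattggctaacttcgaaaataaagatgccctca
Ccr1: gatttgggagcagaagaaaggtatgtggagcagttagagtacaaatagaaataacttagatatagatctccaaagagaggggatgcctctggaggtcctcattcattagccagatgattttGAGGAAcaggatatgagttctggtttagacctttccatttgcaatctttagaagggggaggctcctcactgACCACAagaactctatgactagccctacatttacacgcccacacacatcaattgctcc
None of the 6 receptors held the C/EBP letters TTGCNNAA in this window, which 9.56% of 32851 mouse promoters of the same length held. The letters GAGGAA, the core that PU.1 binds, stood in Cxcr2 (as TTCCTC, 81 to 76 bases before the start) and in Ccr1 (129 to 124 bases before it), and in 23.3% of all promoters. The RUNX letters TGTGGT stood as ACCACA in Cx3cr1 (54 to 49 bases before the start) and in Ccr1 (58 to 53), against 14% of all promoters. The GATA letters AGATAA, held by 9.99% of promoters, matched once, in Ccr2 (as TTATCT, 97 to 92 bases before the start). No 2 of these matches overlapped. Binding of any factor to these windows was not tested.

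Values are log2 expression levels as the authors deposited them, and array medians lay between 6.03 and 6.23. Arrays of 1 group correlated at 0.942 to 0.988 across genes and no pair was identical. Cebpa itself read 8.68 to 9.31 in GMP fl/p30, 8.48 to 8.86 in GMP fl/BRM2, 8.10 to 8.70 in GMP fl/+, 8.90 to 9.28 in preGM fl/p30 and 8.53 to 8.61 in preGM +/+. A gene level does not tell its alleles apart, so it does not test the genotype labels. Of the sort gate, Fcgr3, a gene of the Fcγ receptors that the antibody of the gate recognises, was higher in GMPs than in preGMs in both genotypes tested (by 2.35 ± 0.20 in fl/p30 and by 2.98 ± 0.20 between the controls, ± SE). Against GMP fl/+, GMP fl/p30 had a higher level of Itga2b, the gene of CD41, which the gate selects against (1.04 ± 0.25, adjusted p = 0.0244, lost on leaving out GMP fl/p30 replicate 1 or 2). Fcgr2b, a gene of FcγRII, was lower there on all arrays and did not pass (-1.07 ± 0.30, adjusted p = 0.051). In GMP fl/BRM2 both genes ran the same way on all arrays and did not pass (Itga2b 0.99 ± 0.25, adjusted p = 0.0534, and Fcgr2b -1.05 ± 0.30, adjusted p = 0.0903). Eng, the gene of Endoglin, which the preGM gate selects against, was lower in GMP fl/+ than in preGM +/+ (-0.74 ± 0.14, adjusted p = 0.00639). The B lymphoid marker list averaged 8.60 on preGM +/+ replicate 3, against 6.59 and 6.71 on the other 2 arrays of that group.

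**Figure D1:**
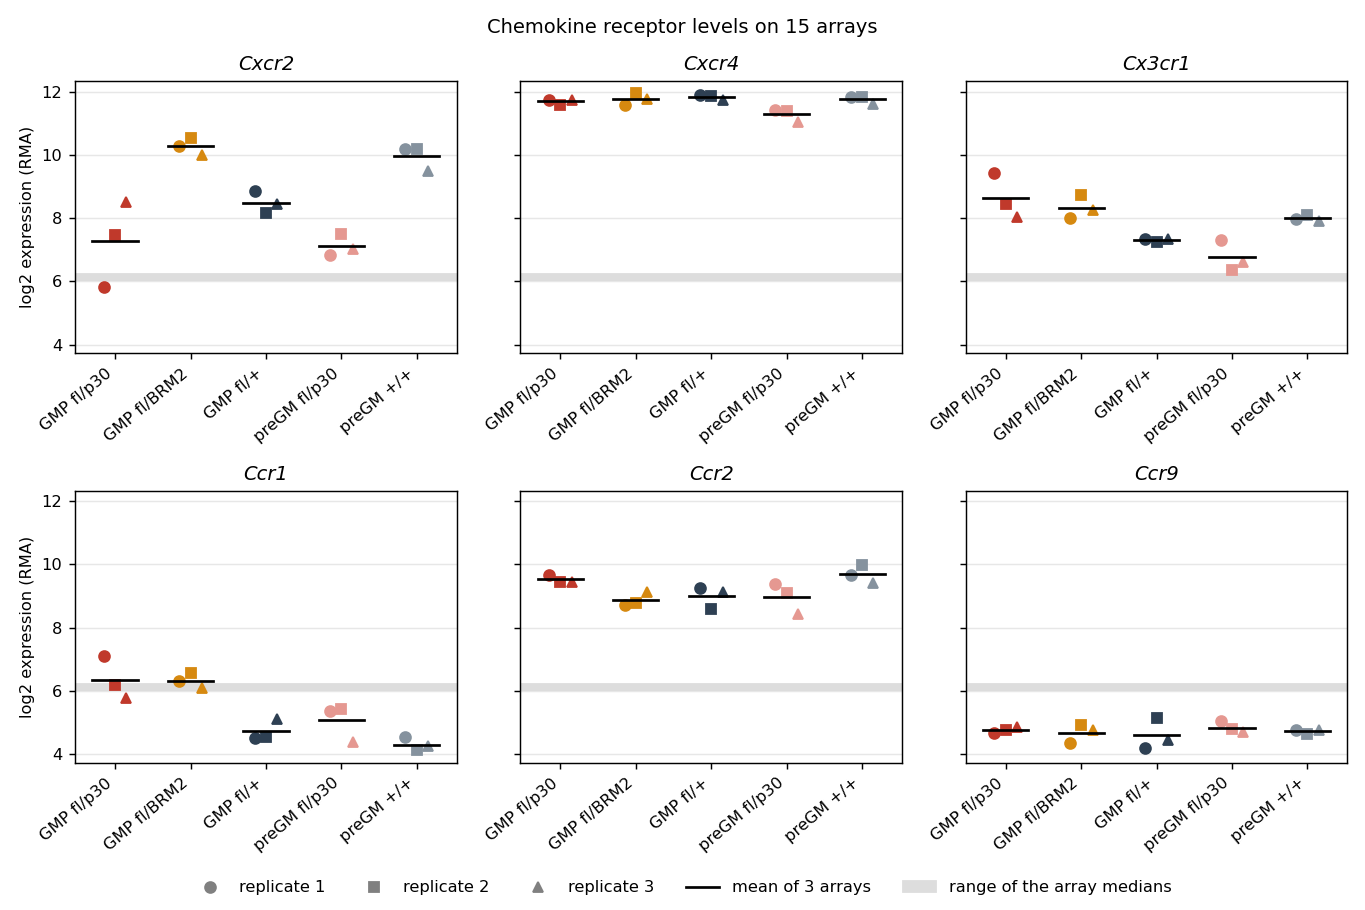
Log2 expression of the 6 chemokine receptors on each of 15 arrays (points, shaped by replicate) with the mean of each group of 3 (bar); the grey band spans the array medians, 6.03 to 6.23. Cxcr2 spans 4.71 log2 units over the arrays while Cxcr4 spans 0.89, and Ccr9 lies under the band throughout.

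The receptors differed widely in how much they varied, as the plot of levels by group shows. Over the 15 arrays the log2 level of Cxcr2 ran from 5.83 to 10.55, that of Cx3cr1 from 6.37 to 9.43, that of Ccr1 from 4.12 to 7.10, that of Ccr2 from 8.44 to 9.97, that of Ccr9 from 4.18 to 5.14 and that of Cxcr4 from 11.06 to 11.95. Ccr9 was below its array's median on 15 of 15 arrays and Ccr1 on 11, and differences of such dim probe sets are compressed. In bulk RNA a change of level cannot be told apart from a change in the share of the sorted cells that carry the transcript.

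Cxcr2, the neutrophil receptor, had the levels that differed most between groups. Its log2 level was 5.83, 7.47 and 8.50 in GMP fl/p30 and 10.28, 10.55 and 9.98 in GMP fl/BRM2, against 8.85, 8.17 and 8.46 in GMP fl/+. In preGMs it was 6.85, 7.50 and 7.02 in fl/p30, against 10.19, 10.20 and 9.49 in +/+. Both fl/p30 groups were thus low and preGM +/+ and GMP fl/BRM2 high, with no array of a low group reaching one of a high group. The order of the group means was GMP fl/BRM2 (10.27 ± 0.28, SD, n = 3 here and below), preGM +/+ (9.96 ± 0.41), GMP fl/+ (8.49 ± 0.34), GMP fl/p30 (7.27 ± 1.34) and preGM fl/p30 (7.12 ± 0.34). GMP fl/BRM2 and preGM +/+ overlapped, as did GMP fl/+ with GMP fl/p30 and GMP fl/p30 with preGM fl/p30.

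Cxcr4, the retention receptor, stayed within 0.89 log2 units over the arrays. It read 11.75, 11.59 and 11.74 in GMP fl/p30, 11.58, 11.95 and 11.76 in GMP fl/BRM2 and 11.89, 11.88 and 11.73 in GMP fl/+. PreGM fl/p30 had 11.42, 11.38 and 11.06, against 11.84, 11.84 and 11.62 in preGM +/+. PreGM fl/p30 was the lowest group and did not overlap the next one, GMP fl/p30, while the other 4 groups overlapped with their neighbours in order.

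Cx3cr1, the fractalkine receptor, was high in both mutant GMP groups. Its log2 level was 9.43, 8.45 and 8.05 in GMP fl/p30 and 8.0, 8.74 and 8.26 in GMP fl/BRM2, against 7.32, 7.24 and 7.33 in GMP fl/+. PreGM fl/p30 had 7.30, 6.37 and 6.62, against 7.97, 8.11 and 7.91 in preGM +/+. In GMPs every array of both mutants lay above every control array, and in preGMs every fl/p30 array lay below every control array. GMP fl/p30, GMP fl/BRM2 and preGM +/+ overlapped in sequence, and GMP fl/+ overlapped preGM fl/p30. PreGM +/+ did not overlap GMP fl/+, the next group in the order of the means.

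Ccr1, a receptor of inflammatory CC chemokines, was higher in both mutant GMP groups than in the other 3 groups. It read 7.10, 6.18 and 5.76 in GMP fl/p30 and 6.30, 6.56 and 6.08 in GMP fl/BRM2, against 4.52, 4.55 and 5.12 in GMP fl/+. PreGM fl/p30 had 5.37, 5.43 and 4.4, against 4.53, 4.12 and 4.26 in preGM +/+. The 2 mutant GMP groups overlapped each other and no other group, and preGM fl/p30, GMP fl/+ and preGM +/+ overlapped in sequence.

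Ccr2, the monocyte receptor, stayed within 1.53 log2 units. Its log2 level was 9.68, 9.45 and 9.45 in GMP fl/p30 and 8.72, 8.78 and 9.13 in GMP fl/BRM2, against 9.26, 8.60 and 9.13 in GMP fl/+. PreGM fl/p30 had 9.39, 9.09 and 8.44, against 9.68, 9.97 and 9.40 in preGM +/+. PreGM +/+ and GMP fl/p30 formed the upper, overlapping pair, and GMP fl/+, preGM fl/p30 and GMP fl/BRM2 overlapped below them. Ccr9, the lymphocyte homing receptor, had group means between 4.59 in GMP fl/+ and 4.84 in preGM fl/p30, all of which overlapped with their neighbours.

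**Figure D2:**
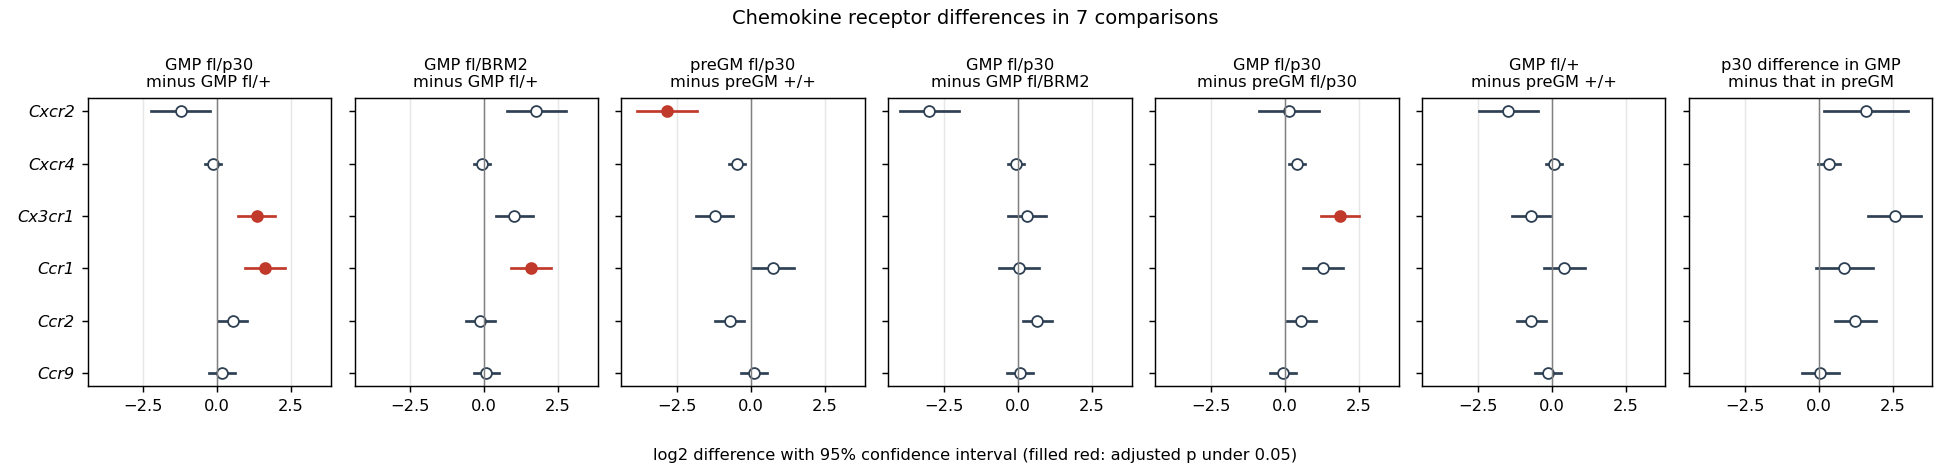
Log2 differences of the 6 receptors in 7 comparisons (first group minus second), with 95% confidence intervals of the linear model; filled red points have an adjusted p under 0.05. Cx3cr1 and Ccr1 are called in GMP fl/p30, Ccr1 in GMP fl/BRM2, Cxcr2 in preGM fl/p30 and Cx3cr1 between the stages of the fl/p30 mice.

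What the p30 allele changes in GMPs was addressed by setting GMP fl/p30 against GMP fl/+. Cx3cr1 rose by 1.34 ± 0.30 on the log2 scale (SE; 2.54-fold; limma, Benjamini-Hochberg adjusted p = 0.0162) and Ccr1 by 1.62 ± 0.32 (adjusted p = 0.0077). These were 2 of the 6 receptors, and 6.06% of all genes were called in this comparison, 4.69% upwards. Ccr1 is given no fold because all 3 control arrays were below their medians. Ccr2 was 0.53 ± 0.23 higher with no overlap between the groups and did not pass (adjusted p = 0.211), so that 3 receptors lay above the control on all arrays, against 17.4% of genes without overlap in either direction. Cxcr2 differed by -1.23 ± 0.47 and did not pass (adjusted p = 0.151), and GMP fl/p30 replicate 3, at 8.50, was within the control range. Without that array the difference of Cxcr2 was -1.84 (adjusted p = 0.0103), its 1 call in 25 settings. With 1 array left out it ran from -1.84 to -0.51 (adjusted p up to 0.414). Cxcr4 differed by -0.14 (95% interval -0.41 to 0.13) and Ccr9 by 0.17 (-0.27 to 0.61). The call of Cx3cr1 did not hold when GMP fl/+ replicate 2 (1.31, adjusted p = 0.053) or the first GMP fl/p30 array (0.95, adjusted p = 0.0598) was omitted, and in a fit of the compared groups alone neither Cx3cr1 (adjusted p = 0.149) nor Ccr1 (adjusted p = 0.108) was called. Ccr1 kept its call without each of the 15 arrays in turn (adjusted p up to 0.0346).

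GMP fl/BRM2 against GMP fl/+ asked the same of the other mutant allele. Ccr1 rose by 1.59 ± 0.32 (SE; adjusted p = 0.0168), 1 receptor of 6, where 2.53% of all genes were called, 1.89% upwards. Cxcr2 was 1.78 ± 0.47 higher (adjusted p = 0.0645) and Cx3cr1 1.03 ± 0.30 higher (adjusted p = 0.091). Both lay above the control on all arrays without passing the test, which with Ccr1 makes 3 receptors, against 15.2% of genes without overlap. Cxcr4 differed by -0.07 (95% interval -0.34 to 0.20), Ccr2 by -0.12 (-0.62 to 0.37) and Ccr9 by 0.08 (-0.35 to 0.52). Ccr1 lost its call without GMP fl/+ replicate 2 (adjusted p = 0.0638) or GMP fl/BRM2 replicate 2 (adjusted p = 0.109), and Cxcr2 was called in 7 of 25 settings, among them the 2 compared groups alone (adjusted p = 0.0254). The 2 mutants share their control arrays in these comparisons.

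The effect of the p30 genotype one stage earlier was given by preGM fl/p30 against preGM +/+. Cxcr2 fell by 2.84 ± 0.47 on the log2 scale (SE; 7.15-fold lower; adjusted p = 0.007), and every fl/p30 array lay below every control array. It was 1 of 6 receptors, where 1.68% of all genes were called, 1.03% downwards, and it kept the call in all 25 settings (differences of -3.07 to -2.70, adjusted p up to 0.0466). Cx3cr1 differed by -1.23 ± 0.30 (adjusted p = 0.0566), Cxcr4 by -0.48 ± 0.13 (adjusted p = 0.0805) and Ccr2 by -0.71 ± 0.23 (adjusted p = 0.171). None of these 3 passed, yet with Cxcr2 they make 4 receptors below the control on all arrays, against 25.1% of genes without overlap in either direction. Ccr1 was 0.76 ± 0.32 higher with overlapping arrays (adjusted p = 0.299), and Ccr9 differed by 0.12 (95% interval -0.32 to 0.55). Cx3cr1 was called in 8 of 25 settings, including the fit with the animal as a random block (adjusted p = 0.0423).

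The fall of Cxcr2 in preGM fl/p30 went with lower levels of the neutrophil, monocyte and stem and multipotent progenitor marker lists. The 10 neutrophil genes averaged 5.49 to 5.71 on the fl/p30 arrays, against 6.84 to 7.81 on the +/+ arrays, and 3 of 10 fell (Ngp, Ltf and Mmp8), where 1.03% of all genes did. That count ran from 0 to 5 with 1 array left out, and all 3 calls were lost without preGM fl/p30 replicate 3. The 9 measured monocyte genes averaged 6.34 to 6.68, against 7.94 to 8.25 in +/+, with 5 lower (Csf1r, F13a1, Ms4a6c, Irf8 and Ly86; 3 to 5 with 1 array left out) and S100a4 higher. The 8 stem and multipotent progenitor genes averaged 6.53 to 6.86, against 7.12 to 7.29 in +/+, and Flt3 (-1.79, adjusted p = 0.00462) and Hlf (-1.17, adjusted p = 0.00285) fell, also with any 1 array left out. Of the 9 mast, basophil and eosinophil genes 1 was called, Cpa3, which rose by 2.53 (adjusted p = 0.00243), where 0.647% of all genes were called higher. The 8 others were not called and differed by -1.26 (Prg2) to 0.56 (Gata2). That list averaged 7.13 to 7.41 on the fl/p30 arrays, against 6.95 to 7.22 in +/+. Mycn of the stem list was 0.61 higher on all fl/p30 arrays and did not pass (adjusted p = 0.259). Mmp9 and Retnlg of the neutrophil list and Clec4a3 and Fn1 of the monocyte list were under the array median on every array. So were 4 of the 8 stem and multipotent progenitor genes (Esam, Hoxb5, Mecom and Procr). GMP fl/BRM2 did not follow that line: the neutrophil list averaged 5.98 to 7.07 there, against 7.19 to 7.80 in GMP fl/+, while Cxcr2 was higher in all 3 GMP fl/BRM2 arrays. In GMP fl/p30 the neutrophil list averaged 5.70, 5.89 and 6.97 on replicates 1, 2 and 3, where Cxcr2 was 5.83, 7.47 and 8.50, so that both were lowest on replicate 1 and highest on replicate 3. The part of these markers in the level of Cxcr2 was not tested.

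**Figure D3:**
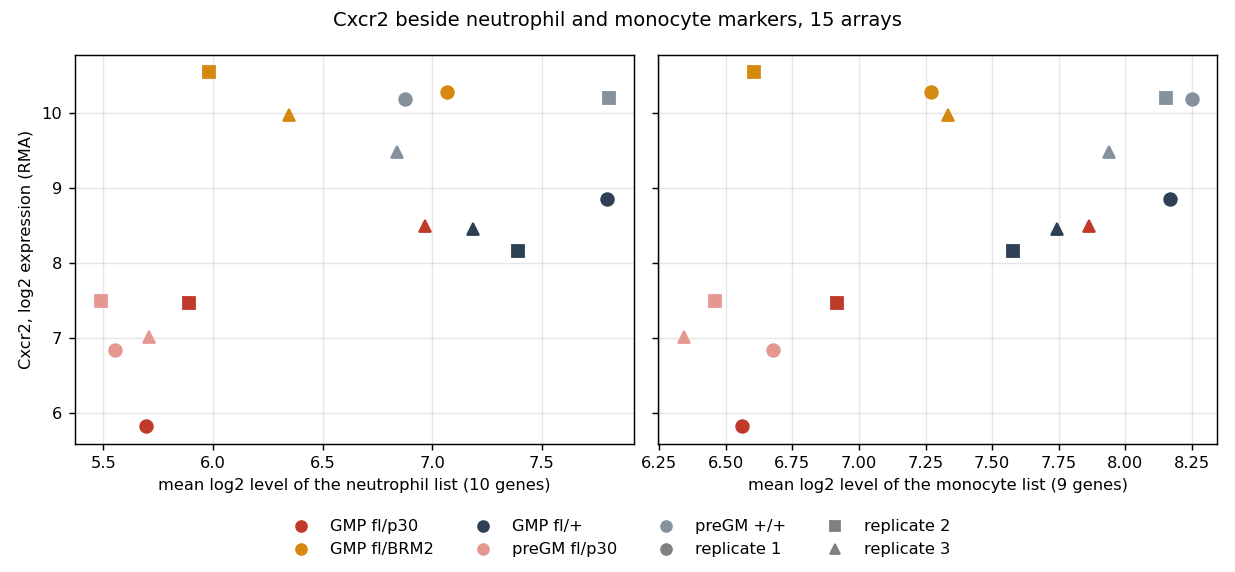
Log2 level of Cxcr2 on each of 15 arrays against the mean log2 level of the neutrophil list (left, 10 genes) and the monocyte list (right, 9 genes), coloured by group and shaped by replicate. PreGM fl/p30 lies low on both axes (neutrophil list 5.49 to 5.71), and GMP fl/BRM2 has Cxcr2 levels of 9.98 to 10.55 with neutrophil list means of 5.98 to 7.07.

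GMP fl/p30 set against GMP fl/BRM2 compares the mutant alleles with each other. Cxcr2 differed by -3.00 ± 0.47 (SE), the widest difference of any receptor in the 7 comparisons, with no overlap, but did not pass (adjusted p = 0.0997). It belonged to 0 receptors of 6 called by limma, where 0.00502% of all genes, a single gene, were called, and 2 receptors, Cxcr2 and Ccr2, had an unadjusted p under 0.05, as did 3.45% of genes. Ccr2 was 0.65 ± 0.23 higher on all GMP fl/p30 arrays (adjusted p = 1), and these 2 receptors were the ones without overlap, against 8.33% of genes. Cx3cr1 differed by 0.31 (95% interval -0.33 to 0.95) and Ccr1 by 0.04 (-0.65 to 0.72). Cxcr2 was called without GMP fl/p30 replicate 3 (-3.62, adjusted p = 0.00427) and with arrays weighted by their quality (-2.70, adjusted p = 0.000248). These were its 2 calls in 25 settings. With 1 array left out its difference ran from -3.62 to -2.29 (adjusted p up to 0.557). The weights were 0.33, 6.02 and 0.79 for GMP fl/p30 replicates 1, 2 and 3, so the weighted level of that group rested mainly on replicate 2.

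The step from preGM to GMP in the p30 mice could be followed in pairs of samples of the same animal. In the fit of all groups, which holds no animal term, Cx3cr1 rose by 1.88 ± 0.30 (SE; 3.67-fold; adjusted p = 0.00936). The GMP sample exceeded the preGM sample by 2.13, 2.07 and 1.42 in the animals of replicates 1, 2 and 3. It was 1 receptor of 6, where 0.642% of all genes were called. Ccr1 was higher in the GMPs by 1.74, 0.75 and 1.37 in the same animals (mean 1.28 ± 0.32, adjusted p = 0.0986) and was called with the animal as a random block (adjusted p = 0.0172), a setting that called 681 genes in place of 128. With the animal as a fixed block in these 6 arrays, which called 71 genes, it was not called (adjusted p = 0.0706), and Cx3cr1 was (1.88 ± 0.16, adjusted p = 0.0286). Cxcr4 (0.33, 0.22 and 0.68; adjusted p = 0.171) and Ccr2 (0.29, 0.36 and 1.01; adjusted p = 0.328) were higher in the GMPs of each animal and did not pass, which gave 4 receptors above preGM on all arrays, against 17.2% of genes without overlap. Cxcr2 had no common direction, at -1.01, -0.03 and 1.48 (mean 0.15, 95% interval -0.86 to 1.15). Cx3cr1 lost its call when preGM fl/p30 replicate 2 (adjusted p = 0.0533) or 3 (adjusted p = 0.057) was omitted, and in a fit of the 2 groups alone without the animal (adjusted p = 0.118).

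**Figure D4:**
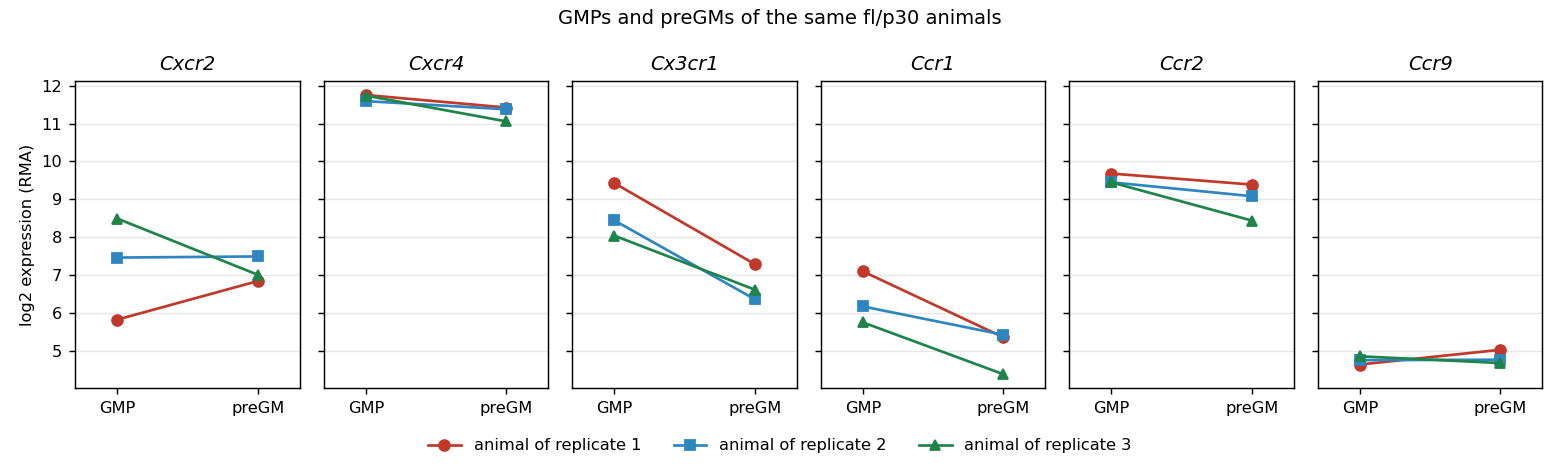
Log2 level of the 6 receptors in GMP and preGM samples of the same 3 fl/p30 animals, joined by lines. Cx3cr1, Ccr1, Cxcr4 and Ccr2 are higher in the GMP sample of every animal, and Cxcr2 runs both ways (-1.01 to 1.48).

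In the controls the same step, GMP fl/+ against preGM +/+, gave no call among the receptors. Cxcr2 differed by -1.47 ± 0.47 (SE; adjusted p = 0.0594), Ccr2 by -0.69 ± 0.23 (adjusted p = 0.0689) and Cx3cr1 by -0.69 ± 0.30 (adjusted p = 0.131), each below preGM +/+ on all arrays. With limma 0 of 6 were called, where 10.2% of all genes were (4.19% higher and 6.02% lower), and 3 had an unadjusted p under 0.05, against 31.7% of genes. The 3 receptors without overlap compare with 34% of genes. Stage and genotype cannot be told apart here. Cxcr2 was called in 7 of 25 settings, among them the 2 groups alone (adjusted p = 0.0228).

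Whether the p30 difference differed between GMPs and preGMs was tested as an interaction. Cx3cr1 had the widest contrast, 1.34 in GMPs and -1.23 in preGMs, a difference of 2.57 ± 0.42 (SE) that did not pass (adjusted p = 0.072). Cxcr2 followed with 1.61 ± 0.66 (adjusted p = 0.338) and Ccr2 with 1.24 ± 0.33 (adjusted p = 0.161). By limma 0 of 6 receptors and 0.00502% of all genes were called, and these 3 receptors had an unadjusted p under 0.05, as did 13.1% of genes. Cx3cr1 was called in 6 of 25 settings, among them the animal as a random block (adjusted p = 0.0271), which called 76 genes in place of 1. Because the controls of the stages differ in genotype, that contrast holds their difference as well.

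Among the other chemokine receptors few genes moved. Of the 18 measured, 8 were under the array median on every array. Ccr3, the eotaxin receptor, rose in GMP fl/p30 by 0.85 ± 0.19 (SE; adjusted p = 0.0149; 6.15 against 5.30 in GMP fl/+) and in GMP fl/BRM2 by 0.75 ± 0.19 (adjusted p = 0.0488). The first of these calls did not survive leaving out either the first or the second GMP fl/p30 array (highest adjusted p = 0.0752), and that in GMP fl/BRM2 was kept in 4 of 15 such fits (adjusted p up to 0.262). Ccr10 was higher in GMP fl/+ than in preGM +/+ by 0.50 ± 0.13 (adjusted p = 0.0314, lost on leaving out any preGM +/+ array or GMP fl/+ replicate 2, highest adjusted p = 0.11). That was 1 of 18 in each of these 3 comparisons, where 6.06%, 2.53% and 10.2% of all genes were called. In the 4 other comparisons 0 of 18 were called. The median difference of the 18 was -0.05 in GMP fl/p30 against GMP fl/+, where that of all genes was -0.04. That of the 6 receptors, which were chosen with earlier results of these data known, was 0.35 there. In preGM fl/p30 against preGM +/+ it was -0.60.

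**Figure D5:**
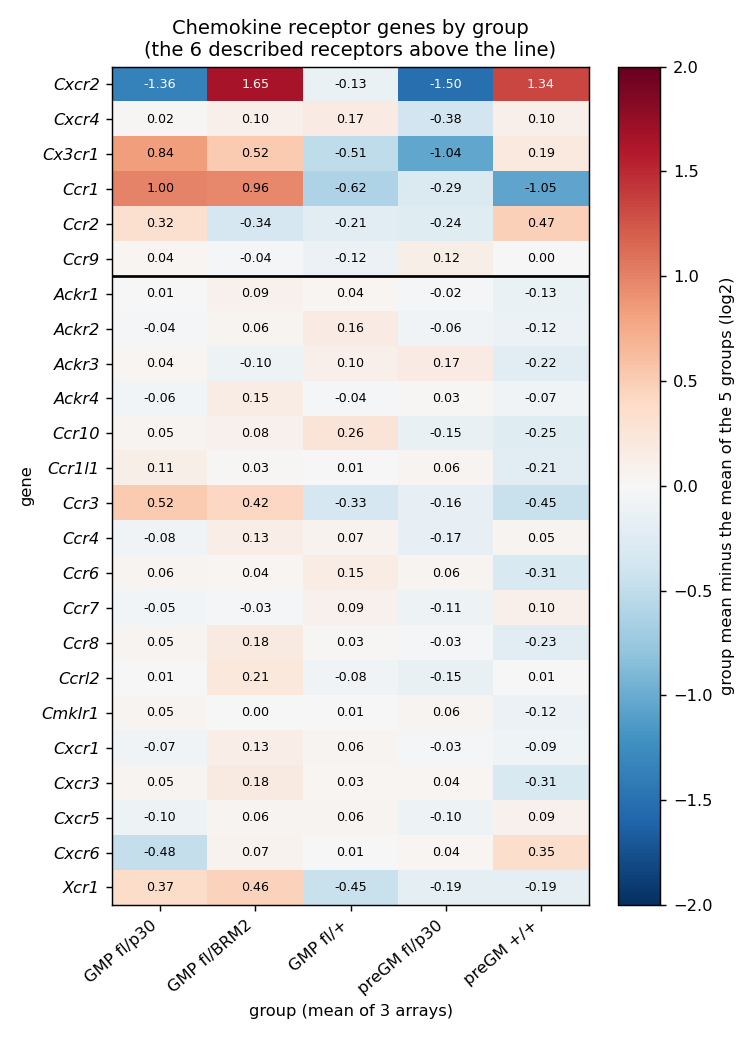
Group means of the 6 described receptors (above the line) and 18 others (below it), each as the difference from the mean of that gene's 5 group means (log2, red higher, blue lower). Cxcr2 ranges from -1.50 to 1.65, and below the line Ccr3 is at 0.52 and 0.42 in the mutant GMPs, against -0.33 in GMP fl/+.

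Markers of mast cells, basophils and eosinophils and of monocytes moved in both directions in the mutant GMPs, and neutrophil markers were called downwards only. The mast, basophil and eosinophil list averaged 7.78 to 7.84 in GMP fl/p30 and 8.04 to 8.20 in GMP fl/BRM2, against 7.63 to 8.12 in GMP fl/+. In GMP fl/p30 2 of its 9 genes rose, Cpa3 by 3.09 and Gata2 by 1.93, and 3 fell, Mcpt8, Prss34 and Prg2, where 4.69% of all genes were called higher and 1.37% lower. In GMP fl/BRM2 Cpa3 rose by 3.00, Gata2 rose by 1.77 and Prss34 fell, where 1.89% of all genes were called higher and 0.642% lower. The monocyte list averaged 6.56 to 7.86 in GMP fl/p30 and 6.61 to 7.33 in GMP fl/BRM2, against 7.58 to 8.17 in GMP fl/+. Its genes F13a1 and Irf8 fell in both mutants, Klf4 fell in GMP fl/p30, and S100a4 rose in both. In GMP fl/BRM2 the calls of F13a1 and Irf8 were lost on leaving out GMP fl/+ or GMP fl/BRM2 replicate 2, and that of S100a4 (adjusted p = 0.0478) was kept in 3 of 15 such fits. The call of Klf4 in GMP fl/p30 was kept in 10 of 15. Of the 10 neutrophil genes 0 were called higher in either mutant. In GMP fl/p30 5 fell (Camp, Ngp, S100a8, S100a9 and Cd177), against 1.37% of all genes, a count of 0 to 5 with 1 array left out. In GMP fl/BRM2 1 fell (Camp), against 0.642%, a count of 0 to 3 with 1 array left out. The part of all these markers in the levels of Ccr1, Ccr3 and Cx3cr1 was not tested.

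Ccr1, Ccr2 and Ccr9 lie close together on chromosome 9, where the order of 8 measured genes in RefSeq is Ccr9, Fyco1, Cxcr6, Xcr1, Ccr1, Ccr1l1, Ccr3 and Ccr2. Of these, Ccr1 and Ccr3 were called in the mutant GMPs. Xcr1, the lymphotactin receptor beside Ccr1, was 0.82 ± 0.26 higher in GMP fl/p30 (SE; adjusted p = 0.0795) and 0.90 ± 0.26 higher in GMP fl/BRM2 (adjusted p = 0.0841) and did not pass. Ccr1l1, on the other side of Ccr1, differed by 0.10 (adjusted p = 0.801) and 0.01 (adjusted p = 0.986), and Fyco1 by 0.00 and -0.24. Ccr1, Ccr1l1 and Ccr3 are related in sequence, and whether a probe set of one also binds transcripts of another was not tested. Next to Cxcr2, neither Cxcr1 nor Rufy4 was called in any comparison (adjusted p of at least 0.182). Next to Cx3cr1, Xirp1 and Ccr8 were not called either, nor was Thsd7b next to Cxcr4, and Lztfl1 next to Ccr9 was lower in GMP fl/+ than in preGM +/+ (-0.77, adjusted p = 0.0454).

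The ligands of the 6 receptors, all 17 measured, included 3 that were called in 1 or more comparisons. In GMP fl/p30 1 was higher and 1 lower, where 4.69% and 1.37% of all genes were called so. In GMP fl/BRM2 1 was higher (1.89% of all genes), and in preGM fl/p30 1 was higher and 1 lower (0.647% and 1.03%). Between the control stages 2 were lower (6.02%), and elsewhere 0 were called. Ccl5, a ligand of CCR1, rose in GMP fl/p30 by 2.29 ± 0.27 (SE; adjusted p = 0.000189; 9.26 against 6.97 in GMP fl/+) and in preGM fl/p30 by 1.52 ± 0.27 (adjusted p = 0.0106; 9.61 against 8.09 in preGM +/+). It was lower in GMP fl/+ than in preGM +/+ (-1.12, adjusted p = 0.0206). Ccl9, another ligand of CCR1, rose in GMP fl/BRM2 by 0.89 ± 0.17 (adjusted p = 0.00981), fell in preGM fl/p30 by 1.07 ± 0.17 (adjusted p = 0.00445) and was lower in GMP fl/+ than in preGM +/+ (-0.94, adjusted p = 0.00422). Ccl12, a ligand of CCR2 that was below the median on every array, differed by -0.46 in GMP fl/p30 (adjusted p = 0.0441, kept in 4 of 15 leave-one-out fits). Ccl5 also belongs to the T and NK list, whose mean, Ccl5 included, was 6.27 to 6.43 in GMP fl/p30 against 5.71 to 5.74 in GMP fl/+. Of its 9 genes 3 were called higher and 0 lower there, where 4.69% and 1.37% of all genes were. Besides Ccl5 these were Cd3g (adjusted p = 0.0276) and Klrd1 (adjusted p = 0.0484), calls kept in 10 and in 3 of 15 leave-one-out fits. The 6 others were not called and differed by -0.14 (Cd3e) to 0.68 (Cd3d), with the bright Nkg7 at 0.03. Cd3g and Klrd1 were under the array median on every array, and the part of such cells was not tested. The preGM call of Ccl5 was lost on leaving out preGM +/+ replicate 3 or the first preGM fl/p30 array (highest adjusted p = 0.0618). The GMP fl/BRM2 call of Ccl9 was lost without GMP fl/BRM2 replicate 2 (adjusted p = 0.0645).

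Of 22 genes that carry the signal of these receptors, 6 rose and 1 fell in GMP fl/p30 against GMP fl/+, where 4.69% of all genes were called higher and 1.37% lower. Jak2, a kinase coupled to several chemokine and cytokine receptors, rose by 1.29 ± 0.22 (SE; adjusted p = 0.00351) and kept its call without each of the 15 arrays. Stat3 rose by 0.63 ± 0.13 (adjusted p = 0.0113), the G protein subunit gene Gng2 by 0.52 ± 0.12 (adjusted p = 0.0158) and Pik3cg, the PI3-kinase that Gβγ activates, by 0.72 ± 0.18 (adjusted p = 0.0328). The other 3 were Gnai3, Prex1 and, downwards, Vav3, named here to complete the count. The number that rose ran from 1 to 11 when 1 array was left out, and Stat3, Gng2 and Pik3cg were each no longer called on leaving out the first or the second GMP fl/p30 array, Gng2 also without GMP fl/+ replicate 3 and Pik3cg without GMP fl/+ replicate 2. In GMP fl/BRM2 Jak2 alone passed, 1.02 ± 0.22 higher (adjusted p = 0.028, lost on leaving out replicate 2 or 3 of either group, highest adjusted p = 0.174). That was 1 of 22, where 2.53% of all genes were called. In preGM fl/p30 against preGM +/+ 0 of 22 passed, where 1.68% were called. From preGM +/+ to GMP fl/+ 1 of 22 was called higher and 2 lower, where 4.19% and 6.02% of all genes were. Between the control stages Pik3cg (-1.10, adjusted p = 0.00334) and Elmo1 (-0.55, adjusted p = 0.046) were lower in GMP fl/+ than in preGM +/+ and Plcb2 was higher (1.06, adjusted p = 0.0146).

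Proteins that shut the receptors off showed 3 of 12 measured genes higher in GMP fl/p30 and 0 lower by limma, against 4.69% and 1.37% of all genes. The 3 ran from 1 to 3 with 1 array left out. Rgs18, a GTPase activator for Gi proteins in blood cells, rose in GMP fl/p30 by 1.19 ± 0.19 (SE; adjusted p = 0.00208), in GMP fl/BRM2 by 1.09 ± 0.19 (adjusted p = 0.00735) and in preGM fl/p30 by 0.92 ± 0.19 (adjusted p = 0.0272). Its first call held without each of the 15 arrays, the second was lost without GMP fl/BRM2 replicate 2 (adjusted p = 0.057), and the third was lost on leaving out any preGM +/+ array or preGM fl/p30 replicate 1 or 3 (highest adjusted p = 0.131). Rgs1, a regulator of the same kind, rose by 1.67 ± 0.35 in GMP fl/p30 (adjusted p = 0.0126) and by 1.49 ± 0.35 in GMP fl/BRM2 (adjusted p = 0.0387), calls kept in 12 and in 7 of 15. It was lower in GMP fl/+ than in preGM +/+ (-1.24, adjusted p = 0.0409), where Arrb2, the gene of β-arrestin 2, was 0.80 higher (adjusted p = 0.0363) and Rgs14 0.53 higher (adjusted p = 0.0431). Adrbk2, a receptor kinase gene, was 0.87 higher in GMP fl/p30 (adjusted p = 0.0454), a call kept in 5 of 15. Of the 12, 2 were higher in GMP fl/BRM2, where 1.89% of all genes were, and 1 in preGM fl/p30, where 0.647% were. Between the controls 2 were higher and 1 lower, where 4.19% and 6.02% of all genes were.

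Of the 9 measured genes of integrins and their partners, which anchor progenitors in marrow beside CXCR4, Itga4, the α4 chain of VLA-4, rose in both mutant GMPs. It was the 1 gene of 9 called in GMP fl/p30 and in GMP fl/BRM2, where 6.06% and 2.53% of all genes were called. Its log2 level averaged 11.73 in GMP fl/p30 and 11.58 in GMP fl/BRM2, against 10.26 in GMP fl/+. The differences were 1.47 ± 0.22 (SE; adjusted p = 0.00123) and 1.32 ± 0.22 (adjusted p = 0.00525), and both calls held without each of the 15 arrays. Itgb2, the β2 chain, was higher in GMPs than in preGMs in fl/p30 mice (1.17 ± 0.21, adjusted p = 0.0211) and between the controls (0.94 ± 0.21, adjusted p = 0.0169). The first of these calls was lost on leaving out preGM fl/p30 replicate 2 or 3 (highest adjusted p = 0.111), the second on leaving out preGM +/+ replicate 1 or 3 or GMP fl/+ replicate 2 (highest adjusted p = 0.061). Between the controls Vcam1 (1.90, adjusted p = 0.00953) and Itgam (0.64, adjusted p = 0.038) were higher too and Itgb1 lower (-0.76, adjusted p = 0.015), calls kept in 15, 10 and 12 of 15 such fits. That made 3 of 9 higher and 1 lower between the controls, where 4.19% and 6.02% of all genes were called so. Between the fl/p30 stages 1 of 9 was higher, where 0.356% of all genes were. In the fl/p30 preGMs 0 of 9 passed against preGM +/+, where 1.68% of all genes did.

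The genes whose levels ran most like those of each receptor over the 15 arrays were ranked by Pearson's r among 9534 or 9535 named genes with an above-median mean. For Cxcr2 they were Met (0.87), the receptor of hepatocyte growth factor, Sfxn1 (0.84) and Kpna2 (0.84). Met fell with the p30 allele in GMPs (-1.98, adjusted p = 0.0414) and in preGMs (-2.96, adjusted p = 0.0116), calls kept in 2 and in 13 of 15 leave-one-out fits, and in GMP fl/BRM2 it differed by 0.04 (adjusted p = 0.987) where Cxcr2 was 1.78 higher. Cx3cr1 ran with the ATP-gated channel genes P2rx7 (0.92) and P2rx4 (0.88) and with Septin11 (0.87). P2rx7 was the single gene called in the interaction: it was 0.98 higher in GMP fl/p30 (adjusted p = 0.00132), -0.68 in preGM fl/p30 (adjusted p = 0.0337), with a difference between the stages of 1.65 ± 0.21 (SE; adjusted p = 0.0269). The first of these 3 calls held without each of the 15 arrays, the second was kept in 9 of 15 such fits and lost without any 1 of the 6 preGM arrays, and the third was kept in 7 of 15 (highest adjusted p = 0.147). Ccr1 ran with Cdh1 (0.94), the gene of E-cadherin, Csrp3 (0.94) and Il6 (0.94), of which Il6 was 4.33 higher in GMP fl/p30 (adjusted p = 6.53e-05) and 4.07 higher in GMP fl/BRM2 (adjusted p = 0.00023). The closest genes were Tmem229b (0.87), Qsox1 (0.85) and Irak3 (0.84) for Cxcr4, Etv3 (0.83), Kdelr1 (0.80) and Snrpb (0.80) for Ccr2, and Trim12a (0.84), Gpr75 (0.74) and Trim24 (0.74) for the dim Ccr9. These are descriptions over arrays that share 5 groups, and the highest value between 2 of the receptors was 0.62, for Cx3cr1 with Ccr1, over the same 15 arrays.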

How the data were processed

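Expression was measured on 15 arrays. The authors deposited log2 values. RMA, which corrects background, quantile-normalizes and summarises probe sets, and the affy package are named per the submitters' processing notes, without versions. The table held 34760 probe sets, of which 21640 had 1 gene symbol in the platform annotation, 1321 several and 11799 none. Symbols were matched to RefSeq by Entrez ID for 21553 of them, and 0 changed. Of the 19937 genes, 954 had several probe sets and kept the one with the highest mean.

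A linear model with 5 group means was fitted to all arrays with limma 3.58.1 (R 4.3.3) and eBayes (10 residual and 4.24 prior degrees of freedom), with Benjamini-Hochberg adjustment across the whole gene table within each comparison. Unless another tool is named, every adjusted p is from that fit, and a gene was called under 0.05. The steps were tested on simulated data with independent noise on each array. Those data held no pairing of animals and no difference in spread between arrays. The receptors and gene lists were chosen with earlier results of these data known. Genes named besides the 6 receptors are up to 4 called genes per list and comparison, the 3 genes most correlated with each receptor, sort gate genes and chromosomal neighbours; Gnai3, Prex1, Vav3, called cell type markers and Cebpa were added after their values were seen.

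Each sample title carries a number, read here as that of the animal; GMP and preGM fl/p30 samples share their 3 numbers and were taken as pairs. Their deviations from the group means correlated at 0.334, 0.32 and 0.1155 across genes, with the third GMP sample closer to the second preGM sample (0.1535). No other groups have an animal number in common, and they share only the replicate number. The arrays have no read depth, and 3 per group limit the precision. Settings tried were the compared groups alone, array weights, an intensity trend, dim genes left out, probe sets averaged, renewed quantile normalization, a minimum difference, animal and replicate blocks, and each array left out.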

Additional observations from a re-analysis of the deposited data

How the results depend on the processing

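The number of receptors called when 1 array was left out ran from 1 to 3 for GMP fl/p30 against GMP fl/+, 0 to 3 for GMP fl/BRM2 against GMP fl/+, 1 to 2 for preGM fl/p30 against preGM +/+, 0 to 1 for GMP fl/p30 against GMP fl/BRM2, 0 to 2 for GMP fl/p30 against preGM fl/p30, 0 to 2 for GMP fl/+ against preGM +/+ and 0 to 2 for the interaction. A fit of the compared groups alone called 0 receptors in GMP fl/p30, 2 in GMP fl/BRM2, 2 in preGM fl/p30, 0 between the fl/p30 stages and 2 between the control stages. Array weights called 3 in GMP fl/BRM2, 4 in preGM fl/p30, 1 between the mutants, 4 between the fl/p30 stages, 1 between the control stages and 3 in the interaction. They gave GMP fl/p30 replicate 2 a weight of 6.02 and every other array at most 2.16. Leaving out dim genes, which removes Ccr1 and Ccr9 from the test, called 1 between the control stages, 1 in GMP fl/p30 and, of the preGM comparison, 2. The replicate block with the animal as a random term called 2 in preGM fl/p30, 2 between the fl/p30 stages and 1 in the interaction. The fixed replicate block and the fixed block over the 6 fl/p30 arrays (1 receptor called between the stages) changed no other count. Leaving out both replicate 1 fl/p30 arrays, a setting chosen after seeing the data, called 3 in GMP fl/BRM2, 2 in preGM fl/p30, 2 between the control stages and 1 in the interaction. Directions turned in differences that were never called. Between GMP fl/p30 and GMP fl/BRM2, Ccr1 was -0.0867 with array weights and -0.3425 without both replicate 1 arrays, and Cx3cr1 -0.0837 without both replicate 1 arrays as well. Ccr9 between the fl/p30 stages was 0.0048 with array weights and 0.0828 without both replicate 1 arrays. With 1 array left out, the ranges that crossed 0 were -0.1634 to 0.0206 for Cxcr4, -0.3196 to 0.007 for Ccr2 and -0.1203 to 0.3566 for Ccr9 in GMP fl/BRM2, and -0.036 to 0.441 for Ccr9 in GMP fl/p30, each against GMP fl/+. Between the mutants they were -0.1635 to 0.0204 for Cxcr4, -0.0837 to 0.6085 for Cx3cr1, -0.3425 to 0.3291 for Ccr1 and -0.0799 to 0.2039 for Ccr9. Between the fl/p30 stages they were -0.4696 to 0.8616 for Cxcr2 and -0.1465 to 0.0276 for Ccr9, between the control stages -0.0075 to 0.1185 for Cxcr4 and -0.3995 to 0.0775 for Ccr9, and in the interaction -0.1514 to 0.3255 for Ccr9. The count of called genes over all settings ran from 172 to 4063 for GMP fl/p30 (1209 as reported), 131 to 2218 for GMP fl/BRM2 (505), 101 to 1167 for preGM fl/p30 (334), 0 to 283 between the mutants (1), 26 to 1948 between the fl/p30 stages (128), 636 to 4686 between the control stages (2036) and 0 to 1991 for the interaction (1). The cause of these changes was not tested. Background correction could not be varied without scanner files, and the dim Ccr1 and Ccr9 are limited by signal near background.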
